A study of Mus musculus with 6 samples.

Results

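Iron and heme handling was followed through 10 genes chosen by name from the deposited expression table: the hormone gene Hamp, the carrier gene Trf, the receptor genes Tfrc and Tfr2 with the receptor partner Hfe, the exporter gene Slc40a1, the storage genes Fth1 and Ftl1, the heme-binding gene Hpx and the ferroxidase gene Cp. All 10 were found among the 22481 gene symbols of the table, and all 10 were among the 11633 genes with enough counts to be tested. The study compared livers of male C57BL/6J mice, an inbred laboratory strain, aged 10 weeks. One group (fed, 3 libraries) ate freely and the other (fasted, 3 libraries) had no food for 16 h before the liver was taken. No genotype or agent other than the feeding state separated the groups. Total RNA was depleted of ribosomal RNA and sequenced, and where 3 values of a group are listed they follow its libraries 1, 2 and 3. Whether separate mice gave the libraries is not stated in the labels, so p-values here reflect only the spread from library to library.

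The liver makes most of the proteins that carry iron and heme in blood, stores iron in ferritin and secretes hepcidin, the hormone encoded by Hamp. Hepcidin binds ferroportin, the only known iron exporter of mammalian cells and the product of Slc40a1, and causes its degradation, so that less iron enters the plasma. Transcription of Hamp is known to be raised by bone morphogenetic proteins (BMP) through SMAD factors and by interleukin 6 through STAT3, while ferritin and transferrin receptor 1 are known to be regulated after transcription, by iron regulatory proteins that bind stem-loops called iron-responsive elements in their messenger RNAs.

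The promoter of Hamp is shown because both of these inputs act on it. The 250 bases before the start of Hamp, at chr7:30944030-30944279 on the minus strand of GRCm38.p6 (RefSeq), are printed 5′ to 3′ with the BMP response element core GGCGCC and the STAT site core TTCNNNGAA in capitals.
Hamp: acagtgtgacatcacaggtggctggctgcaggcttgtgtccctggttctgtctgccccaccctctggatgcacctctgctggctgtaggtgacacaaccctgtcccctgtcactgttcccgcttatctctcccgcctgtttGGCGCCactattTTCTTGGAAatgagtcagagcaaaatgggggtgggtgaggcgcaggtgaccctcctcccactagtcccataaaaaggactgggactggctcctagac
Both motifs were searched on both strands, and the matches do not overlap each other. GGCGCC begins 109 bases and TTCNNNGAA 97 bases before the start. Of 32851 promoter windows of this length, 9.59% held GGCGCC, 7.02% held TTCNNNGAA and 0.368% held both. Promoters of 8 of the 10 genes were matched in the RefSeq table, without Trf and Slc40a1. Of these, Tfrc also held GGCGCC, 89 bases before the start in the first of its windows, and neither motif was found in the windows of the other 6. A match describes the letters of the window and is not evidence of binding.

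The iron-responsive elements of the ferritin genes and Tfrc are shown because iron is known to act on these messages through them. Matches for these 3 genes were taken from GENCODE M21 transcripts (GRCm38) as a C, 5 bases, the loop CAGTGN and 5 bases that pair with the 5 before the loop, with G-T pairs allowed. The loop is in capitals. Whether other members, Slc40a1 among them, hold a match is not shown. Elements with another loop or an unpaired stem base are missed by this pattern. Fth1 held 1 match in its 5′ UTR, in exon 1 at chr19:9982733-9982759 on the plus strand, and Ftl1 held 1 in its 5′ UTR, in exon 1 at chr7:45459780-45459806 on the minus strand. Tfrc held 4 matches in its 3′ UTR, in exon 19 on the plus strand, at chr16:32631220-32631246, chr16:32631599-32631625, chr16:32631664-32631690 and chr16:32631711-32631737, in the order printed.
Fth1: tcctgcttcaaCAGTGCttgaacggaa
Ftl1: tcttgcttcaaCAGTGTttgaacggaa
Tfrc element 1: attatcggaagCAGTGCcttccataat
Tfrc element 2: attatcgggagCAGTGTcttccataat
Tfrc element 3: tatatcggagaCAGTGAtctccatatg
Tfrc element 4: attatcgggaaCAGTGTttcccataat
Such a match was rare: of 21877 protein-coding genes, 31 (0.142%) had one in a 5′ UTR and 129 (0.59%) in a 3′ UTR.

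After removal of the scaling step, fed libraries held from 12289648 to 14771821 counts in all genes, and fasted libraries from 11158002 to 11639386. The members had between 517 and 580474 counts in a library, and 3 counts corresponded to between 0.186 and 0.291 CPM, counts relative to the scaled library total. The tissue label was checked against hepatocyte markers, which were abundant in each library except that Alb was listed at 0 in fed library 2. The value is doubtful beside 50409 and 33310 CPM of Alb in fed libraries 1 and 3, and its cause was not tested. Of the 7 hepatocyte markers 1, Cyp2e1, passed the test between groups (edgeR adjusted p 0.0351). Cyp2e1 stood at 3352, 2259 and 1740 CPM in the 3 fed libraries and at 8250, 10689 and 12918 CPM in the 3 fasted ones. The summed level of 7 Kupffer cell markers was 536, 561 and 449 CPM in the 3 fed libraries and 503, 621 and 418 CPM in the 3 fasted ones, and none of these markers was at 0 in all libraries. Of 11633 genes tested with the quasi-likelihood test of edgeR, 293 (2.52%) passed an adjusted p of 0.05, of which 164 (1.41%) were higher and 129 (1.11%) lower in fasted livers.

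None of the 10 members passed that threshold, where 2.52% of all genes did. Before adjustment 3 members, Hamp, Tfr2 and Hfe, had a p under 0.05, against 21.8% of all genes. Limma called 0 members in each of the 4 analyses on FPKM (fragments normalised to gene length and library total), and DESeq2 called 1, Tfr2, where it called 8.33% of all genes. The estimates for 7 members were higher in fasted livers and those for 3, Trf, Hpx and Cp, were lower. For 5 members (Hamp, Tfr2, Hfe, Fth1 and Ftl1) every fasted library lay above every fed library in CPM, though for Hfe not in FPKM. Over all genes 15.3% showed such a separation with higher fasted values and 29% showed it in either direction. The median log2 fold change of the members was 0.30, and that of all genes was −0.02. Permuting 3 against 3 libraries allows no exact p under 0.1 for 1 gene, and permutation tests are therefore not given.

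**Figure D1:**
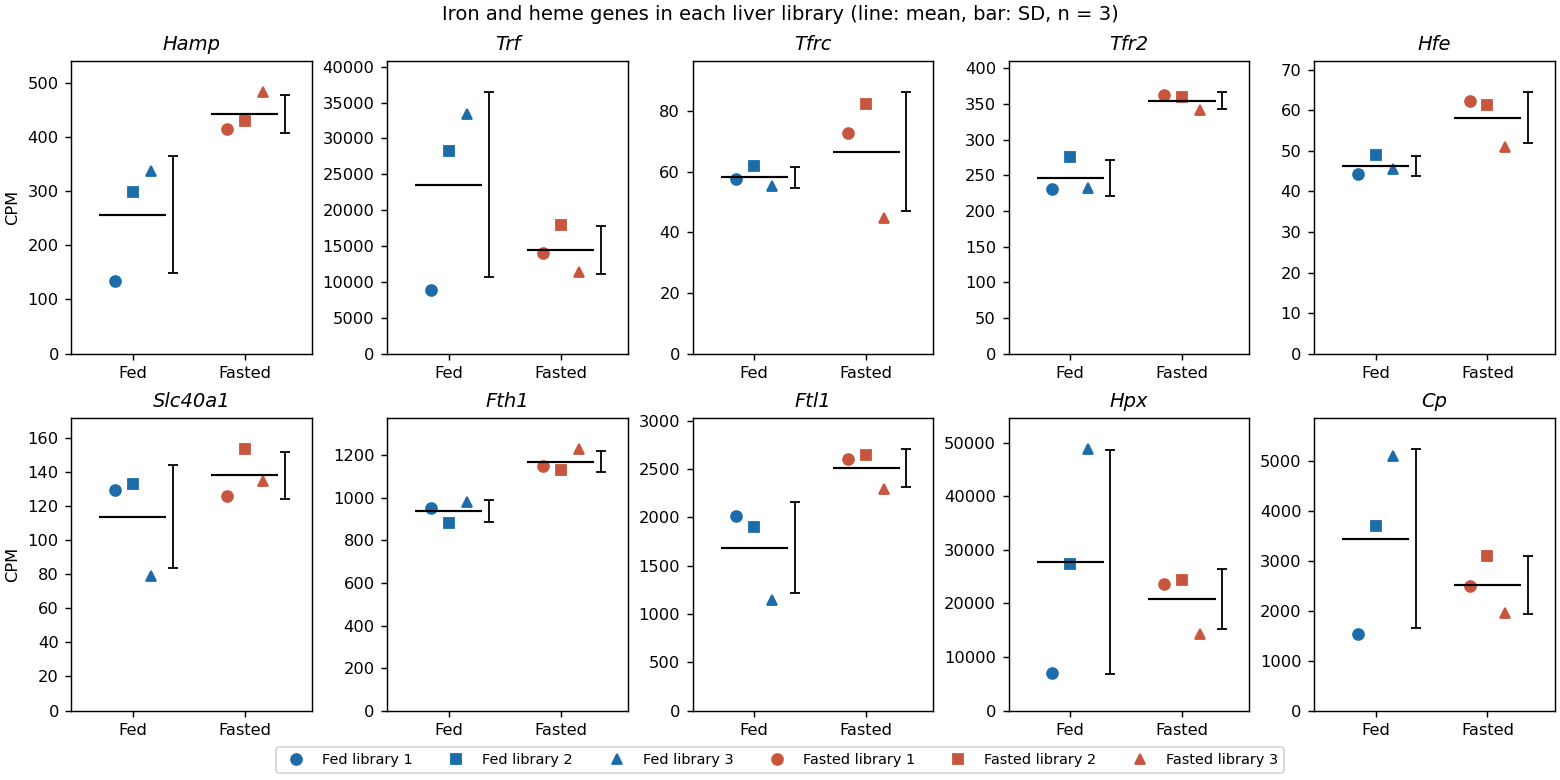
CPM of the 10 iron and heme genes in each library, with 1 panel for each gene, a vertical axis from 0, points for libraries, a line for the group mean and a bar for the SD (n = 3). Hamp, Tfr2, Hfe, Fth1 and Ftl1 show fasted points above all fed points, and the fed points of Trf, Hpx and Cp spread over a wider range than the fasted points.

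Hamp (ENSMUSG00000050440, chr7:30942368-30944032, minus strand), the gene of hepcidin, stood at 134, 298 and 338 CPM in the 3 fed libraries and at 415, 430 and 482 CPM in the 3 fasted ones. All fasted libraries were above all fed libraries, and fed library 1 was the lowest. The mean level was 257 ± 108 CPM in fed and 442 ± 35.4 CPM in fasted livers (SD, n = 3 each). The estimated log2 fold change was 0.78 (SE 0.33, 95% interval 0.0022 to 1.57), and the edgeR adjusted p of 0.228 did not pass. Without fed library 1 the estimate was 0.45 (edgeR adjusted p 0.189), and without fed library 3 it was 1.04 (edgeR adjusted p 0.113).

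Hamp2 (ENSMUSG00000056978), the near copy beside Hamp on the same strand, could share reads with it. Hamp2 stood at 12.3, 13.1 and 2.43 CPM in the 3 fed libraries and at 8.45, 9.24 and 20.1 CPM in the 3 fasted ones. These groups overlapped (log2 fold change 0.43, edgeR adjusted p 0.713), and the level of Hamp2 was low beside that of Hamp in every library, with Hamp FPKM between 13.1 and 167 times those of Hamp2. The annotation also places the long noncoding RNA gene Gm44662 across Hamp on the opposite strand, and since it is not known whether strand was used in counting, reads of that gene could not be told apart from those of Hamp.

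Slc40a1 (ENSMUSG00000025993, chr1:45908068-45926523, minus strand), whose protein is the target of hepcidin, stood at 129, 133 and 78.8 CPM in the 3 fed libraries and at 126, 153 and 134 CPM in the 3 fasted ones. The groups overlapped, and fed library 3 was the lowest. The estimated log2 fold change was 0.28 (SE 0.23, 95% interval −0.25 to 0.81, edgeR adjusted p 0.514). The ratio of Hamp to Slc40a1 in FPKM was 15.1, 32.7 and 63.3 in the 3 fed libraries and 48.1, 42.3 and 52.3 in the 3 fasted ones. The fasted ratios thus lay within the fed range.

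Tfr2 (ENSMUSG00000029716, chr5:137569840-137587481, plus strand), transferrin receptor 2, is known in hepatocytes as a sensor of iron-loaded transferrin. It stood at 231, 276 and 232 CPM in the 3 fed libraries and at 363, 359 and 341 CPM in the 3 fasted ones. The groups were separate, with a mean of 246 ± 25.7 CPM in fed and 355 ± 11.5 CPM in fasted livers (SD, n = 3 each). The log2 fold change was 0.53 (SE 0.16, 95% interval 0.14 to 0.91) with an edgeR adjusted p of 0.129, the lowest among the members. DESeq2 called Tfr2 (log2 fold change 0.52, DESeq2 adjusted p 0.0106), and over the 17 alternatives its adjusted p lay between 0.0106 and 0.319.

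Hfe (ENSMUSG00000006611, chr13:23702034-23710854, minus strand), the gene altered in the common form of hereditary hemochromatosis in humans, encodes a partner of both transferrin receptors. Its level was 44.3, 49.0 and 45.4 CPM in the 3 fed libraries and 62.3, 61.3 and 51.0 CPM in the 3 fasted ones. The groups did not overlap, but fasted library 3 lay close to fed library 2. Its log2 fold change was 0.33 (SE 0.14, 95% interval 0.01 to 0.65, edgeR adjusted p 0.214). In CPM, Hfe and Tfr2 had the same order of the 6 libraries, from fed library 1 as the lowest to fasted library 1 as the highest.

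Tfrc (ENSMUSG00000022797, chr16:32608920-32632794, plus strand) encodes transferrin receptor 1, which takes up iron-loaded transferrin. Its message holds the 4 matches printed above in its 3′ UTR. Tfrc stood at 57.4, 61.8 and 55.2 CPM in the 3 fed libraries and at 72.9, 82.2 and 44.7 CPM in the 3 fasted ones. Fasted library 3 was the lowest of all 6 and the other fasted libraries were the highest, so the groups overlapped. For Tfrc the log2 fold change was 0.20 (SE 0.23, 95% interval −0.34 to 0.73, edgeR adjusted p 0.656). In FPKM, Tfr2 exceeded Tfrc in every library, by a ratio of 6.88, 7.13 and 6.96 in fed libraries 1, 2 and 3 and of 7.72, 6.97 and 12.2 in fasted libraries 1, 2 and 3.

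Fth1 (ENSMUSG00000024661, chr19:9980598-9985098, plus strand) and Ftl1 (ENSMUSG00000050708, chr7:45457944-45459884, minus strand) encode the heavy and light chains of ferritin, the shell in which iron is stored. Fth1 stood at 955, 880 and 983 CPM in the 3 fed libraries and at 1151, 1132 and 1229 CPM in the 3 fasted ones. Ftl1 stood at 2008, 1898 and 1143 CPM in the 3 fed libraries and at 2600, 2640 and 2287 CPM in the 3 fasted ones. Both genes had every fasted library above every fed library. In CPM, fed library 3 held a low Ftl1 but the highest fed value of Fth1. In FPKM the highest fed Fth1 was in fed library 1, at 1356 against 1202 in fed library 3. The log2 fold change was 0.32 for Fth1 (SE 0.19, 95% interval −0.13 to 0.76, edgeR adjusted p 0.371). For Ftl1 it was 0.58 (SE 0.28, 95% interval −0.08 to 1.23, edgeR adjusted p 0.288), and 0.37 without fed library 3 (edgeR adjusted p 0.348).

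The ratio of the light to the heavy chain in FPKM was 1.83, 1.88 and 1.02 in the 3 fed libraries and 1.97, 2.03 and 1.62 in the 3 fasted ones. Fed library 3 alone was near equal chains, and the fasted ratios overlapped the fed ones. Ferritin genes have processed pseudogenes of near-identical sequence, and the counting could have split reads between them and the parent genes. Ftl1 also overlaps a microRNA gene model on its own strand, Gm22133, and Gm10252 on the opposite strand.

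**Figure D2:**
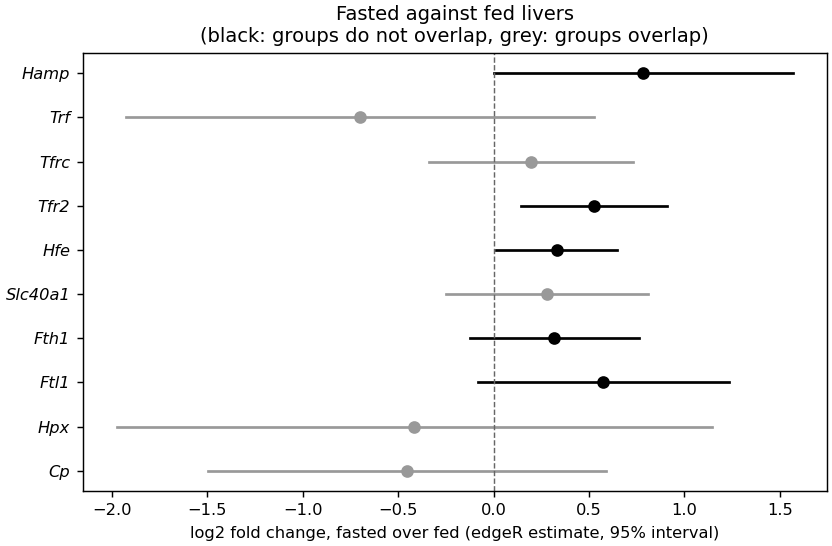
Estimated log2 fold change of fasted over fed livers for the 10 members (horizontal axis, edgeR), with 95% intervals as bars. Members whose groups do not overlap in CPM are black and the others grey. The intervals of Hamp, Tfr2 and Hfe lie above 0, those of the other 7 include 0, and no member passes after adjustment over all genes.

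Trf (ENSMUSG00000032554, chr9:103204001-103230444, minus strand), the gene of transferrin, the iron carrier of plasma, stood at 8931, 28302 and 33333 CPM in the 3 fed libraries and at 14090, 17958 and 11380 CPM in the 3 fasted ones. The fasted values all lay between fed library 1 and fed library 2, so the groups overlapped. The highest fed library exceeded the lowest by 3.73 times, and the highest fasted library exceeded the lowest by 1.58 times. The log2 fold change was −0.70 (SE 0.52, 95% interval −1.93 to 0.53, edgeR adjusted p 0.479). Without fed library 1 it was −1.11 (edgeR adjusted p 0.0697), and without fed library 3 it was −0.36 (edgeR adjusted p 0.71). The readthrough gene model Gm20425 overlaps Trf on the same strand and had between 88 and 370 counts in a library. The deposited locus of Trf spans 42412 bases, against 26444 for the annotated gene.

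Hpx (ENSMUSG00000030895, chr7:105591613-105600137, minus strand), the gene of hemopexin, which binds free heme in plasma and delivers it to the liver, varied most. It stood at 6932, 27428 and 48737 CPM in the 3 fed libraries and at 23682, 24327 and 14273 CPM in the 3 fasted ones. The fasted values again lay between the first and second fed libraries, and the highest fed library exceeded the lowest by 7.03 times, against 1.70 times among fasted libraries. Hpx had a log2 fold change of −0.42 (SE 0.67, 95% interval −1.97 to 1.14, edgeR adjusted p 0.753). The sign of this estimate rested on fed library 3, since without it the value was 0.28 (edgeR adjusted p 0.812).

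Cp (ENSMUSG00000003617, chr3:19957054-20009145, plus strand) encodes ceruloplasmin, the copper enzyme that oxidises iron for loading onto transferrin. Its level was 1535, 3698 and 5096 CPM in the 3 fed libraries and 2490, 3102 and 1949 CPM in the 3 fasted ones. The groups overlapped in the same way, and the fed range was 3.32-fold and the fasted range 1.59-fold. Cp had a log2 fold change of −0.45 (SE 0.45, 95% interval −1.50 to 0.59, edgeR adjusted p 0.591), and it was −0.05 without fed library 3 and −0.83 without fed library 1. Hps3 overlaps Cp on the opposite strand and had between 78 and 142 counts in a library. The deposited locus of Cp spans 309870 bases, against 52092 for the annotated gene printed here. Whether the Cp counts and FPKM include other transcripts of that wider locus was not tested.

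Trf, Hpx and Cp shared one order of the 6 libraries, from the lowest to the highest: fed library 1, fasted library 3, fasted library 1, fasted library 2, fed library 2 and fed library 3. Saa1, the gene of an acute phase protein set beside them, had that same order, at 1904, 18334 and 28404 CPM in the 3 fed libraries and 13015, 13200 and 4273 CPM in the 3 fasted ones. Its reads can be shared with the near copy Saa2. Fasted libraries 1 and 2 lay close for Saa1, and the acute phase genes Saa2, Hp and Lcn2 had them exchanged in the order. The summed level of 15 acute phase genes was 39392, 153314 and 265320 CPM in the 3 fed libraries and 138234, 129900 and 66585 CPM in the 3 fasted ones. None of the 15 passed the test between groups, none was at 0 in all libraries, and the list holds none of the 10 members. Other markers also differed between libraries. The 5 cholangiocyte markers summed to 34.2, 129 and 542 CPM in fed and 20.1, 30.1 and 13.7 CPM in fasted libraries. Most of that was Spp1, at 32.1, 122 and 501.5 CPM in fed and 15.4, 26.4 and 11.9 CPM in fasted libraries. Krt19, Epcam and Krt7 stayed at or below 0.914 CPM in every library. The 4 neutrophil markers summed to 6.00, 134 and 78.6 CPM in fed and 25.4, 78.0 and 18.5 CPM in fasted libraries. S100a8 and S100a9 made up most of that sum, while Camp was at most 4.30 CPM and Ly6g at most 0.0971 CPM. The 7 red cell and blood markers found summed to 242, 77.6 and 77.2 CPM in fed libraries, with Alas2 at 140, 44.9 and 16.9 CPM. In fasted libraries they summed to 173, 222 and 137 CPM, with Alas2 at 42.4, 31.1 and 26.9 CPM. Of these markers 5 were tested between groups and 0 passed. The part of these differences between libraries in the values of Trf, Hpx and Cp was not tested.

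Hamp, whose human and mouse genes are known acute phase targets, did not share that order. Its lowest library, fed library 1, was also the lowest for Saa1, but its highest, fasted library 3, had the second lowest Saa1. Relative to haptoglobin, the plasma protein that binds free haemoglobin, hemopexin stayed in a narrow range: the FPKM ratio of Hpx to Hp was 1.37, 1.10 and 1.32 in the 3 fed libraries and 1.13, 1.21 and 1.36 in the 3 fasted ones. The ratio of Cp to Trf in FPKM was 0.120, 0.0948 and 0.113 in the 3 fed libraries and 0.132, 0.128 and 0.132 in the 3 fasted ones, so all fasted ratios were above the fed ones by a small margin.

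**Figure D3:**
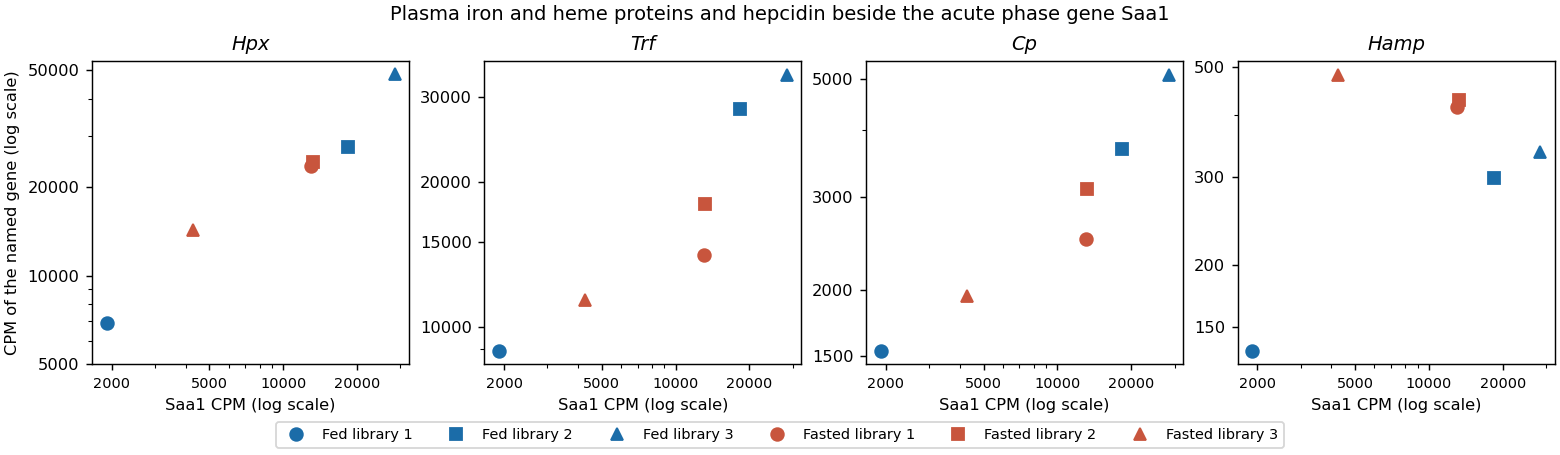
CPM of Trf, Hpx, Cp and Hamp (vertical, log scale) against CPM of Saa1 (horizontal, log scale) in the 6 libraries, with 1 point per library and colour for the feeding state. For Trf, Hpx and Cp the points climb together from fed library 1 to fed library 3 with the fasted libraries between, whereas the Hamp value of fasted library 3 (482 CPM) is the highest at the second lowest Saa1 (4273 CPM).

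Levels were compared between genes on FPKM, which are per length. Hpx ranked first and Trf second of the 10 members in all 6 libraries. Mean FPKM in fed and fasted livers were 18851 ± 13202 and 13756 ± 3389 for Hpx and 9612 ± 4797 and 5771 ± 1237 for Trf (SD, n = 3 each). Among all symbols Hpx ranked 18, 3 and 3 in the 3 fed libraries and 4, 4 and 6 in the 3 fasted ones. Hemopexin and transferrin transcripts were therefore among the most abundant of the liver, in either feeding state.

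Ftl1 came next in 5 of 6 libraries, with a mean FPKM of 1984 ± 672 in fed and 2749 ± 144 in fasted livers. In fed library 3 the third place was taken by Cp. Hamp, Fth1 and Cp followed, with mean FPKM of 1063 ± 402, 1250 ± 91.5 and 1025 ± 485 in fed livers, which do not differ beyond their spread. In fasted livers their mean FPKM were 1770 ± 193, 1473 ± 110 and 752 ± 146, and Hamp exceeded Fth1 and Fth1 exceeded Cp in each of the 3 libraries. Tfr2 was the seventh and Tfrc the last member in all 6 libraries, with mean FPKM in fed and fasted livers of 82.6 ± 11.5 and 112 ± 0.636 for Tfr2 and 11.8 ± 1.49 and 13.2 ± 3.60 for Tfrc. Slc40a1 (33.1 ± 10.7 and 37.4 ± 4.0) and Hfe (25.8 ± 2.64 and 31.3 ± 2.90) exchanged the eighth and ninth places between libraries and do not differ beyond their spread.

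The genes whose log2 CPM followed each member most closely were sought among 7044 tested genes with a mean CPM of at least 10. The measure was Pearson's r over the 6 libraries, which share their feeding groups and scaling, so the values only describe these libraries. For Hpx the leading genes were Lrg1 (r = 0.998), Lcn2 (r = 0.996) and Vtn (r = 0.995), all of which encode secreted plasma proteins. For Cp they were Slc3a1 (r = 0.987), Trf (r = 0.984) and Fam129b (r = 0.983), and for Trf they were Arpc1b (r = 0.989), Pld3 (r = 0.987) and Ppp2r1b (r = 0.985). For Hamp they were the clock gene Per1 (r = 0.991), the transcription factor gene Cebpb (r = 0.988) and the kinase gene Mtor (r = 0.987). The coagulation factor gene F12 (r = 0.999) led for Tfr2, the transcriptional regulator gene Mxi1 (r = 0.998) for Fth1, and Gldc of glycine breakdown (r = 0.991) for Ftl1. Rin2 (r = 0.994) led for Slc40a1, the ribosomal protein gene Rpl6 (r = 0.986) for Hfe and Shb (r = 0.986) for Tfrc. With 6 points such values are common: 378 genes had an r above 0.9 with Fth1, 117 with Hamp and 17 with Tfrc.

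Around the 10 members, 71 other genes of iron and heme biology were listed in 7 groups, of which 68 were tested. Passing the edgeR adjusted p of 0.05, 2 rose and 0 fell, against 1.41% and 1.11% of all genes. With no adjustment 13 higher and 8 lower genes had a p under 0.05, against 11% and 10.8% of all genes. DESeq2 called 9 higher and 1 lower, against 4.4% and 3.93% of the genes it tested. The fasted libraries lay above all fed libraries for 15 genes and below for 8, against 15.3% and 13.7% of all genes.

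Slc48a1 (ENSMUSG00000081534) encodes HRG1, a transporter that moves heme out of endosomes and lysosomes. It stood at 29.2, 30.3 and 23.7 CPM in the 3 fed libraries and at 46.5, 46.4 and 47.2 CPM in the 3 fasted ones. The groups were far apart relative to their spread, and Slc48a1 rose by 0.75 on the log2 scale in fasted livers, or 1.68-fold (SE 0.14, 95% interval 0.43 to 1.07, edgeR adjusted p 0.0395). Of 17 alternatives 8 kept this call. It was lost without fed library 2 (edgeR adjusted p 0.13) and without fasted library 1 (0.123), 2 (0.163) or 3 (0.16), with estimates between 0.73 and 0.79 on the log2 scale, and in the 4 limma analyses and with the replicate number as a block. Hdac7 overlaps Slc48a1 on the opposite strand.

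Pcbp2 (ENSMUSG00000056851) encodes an RNA-binding protein that also acts as an iron chaperone to ferritin. It stood at 79.1, 71.1 and 72.2 CPM in the 3 fed libraries and at 112, 141 and 134 CPM in the 3 fasted ones. The groups did not overlap, and Pcbp2 rose by 0.80 on the log2 scale, or 1.74-fold (SE 0.15, 95% interval 0.44 to 1.16, edgeR adjusted p 0.0453). This call was kept in 8 of 17 alternatives and lost without fed library 2 (edgeR adjusted p 0.187) and without fasted library 1 (0.0961), 2 (0.186) or 3 (0.175), in 3 limma analyses, with no filter on low counts and with the replicate number as a block. Gm27406, a noncoding RNA gene model, overlaps Pcbp2 on the same strand, and Map3k12 and Gm26518 overlap it on the opposite strand. Its relative Pcbp1, also an iron chaperone, stood at 136, 145 and 154 CPM in the 3 fed libraries and at 132, 115 and 124 CPM in the 3 fasted ones (log2 fold change −0.23, edgeR adjusted p 0.402).

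**Figure D4:**
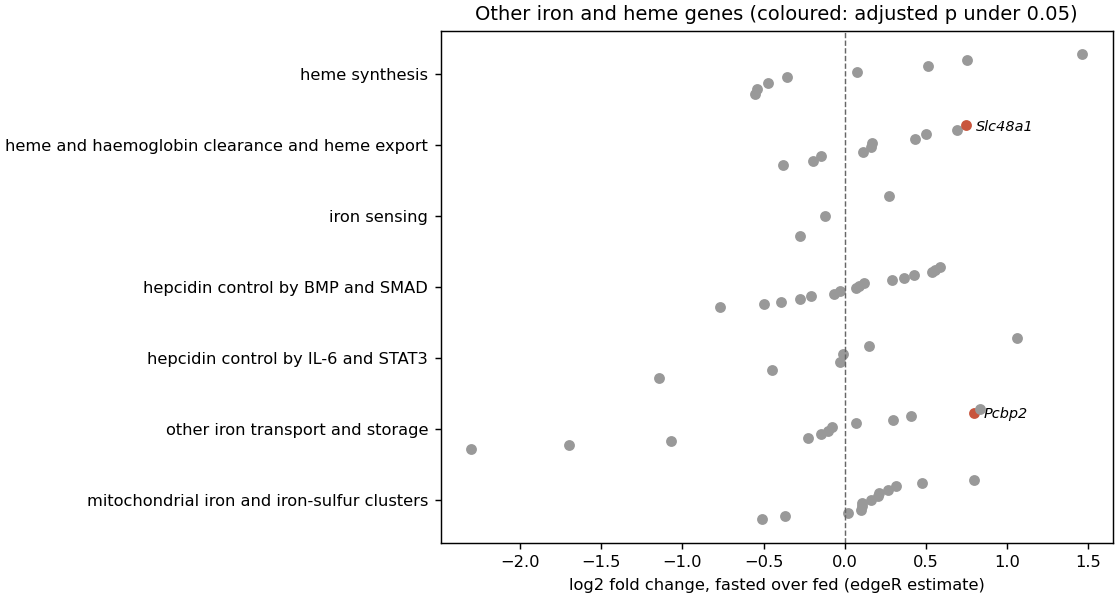
Estimated log2 fold change of fasted over fed livers (horizontal axis, edgeR) for the tested genes of the 7 lists of other iron and heme genes, with 1 line of points per list and colour for an adjusted p under 0.05. Only Slc48a1 (0.75) and Pcbp2 (0.80) are coloured.

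None of the 8 enzymes of heme synthesis passed, and their median log2 fold change was −0.14. The first enzyme, encoded by Alas1, is known to set the rate of the pathway in liver. Alas1 stood at 76.8, 168 and 114 CPM in the 3 fed libraries and at 207, 339 and 443 CPM in the 3 fasted ones. The groups were separate, with a log2 fold change of 1.46 (SE 0.37, 95% interval 0.60 to 2.33, edgeR adjusted p 0.0864). Cpox, of the mitochondrial end of the pathway, stood at 78.0, 97.1 and 99.4 CPM in the 3 fed libraries and at 135, 147 and 181 CPM in the 3 fasted ones (log2 fold change 0.75, SE 0.18, edgeR adjusted p 0.0781). DESeq2 called both Alas1 (DESeq2 adjusted p 0.00214) and Cpox (DESeq2 adjusted p 0.00716), and no other alternative did.

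Among other enzymes of heme synthesis, the log2 fold change was −0.55 for Alad, −0.47 for Uros, 0.07 for Urod, −0.54 for Ppox and 0.51 for Fech, the last of which inserts iron into the ring, with edgeR adjusted p between 0.0938 and 0.816. All fasted libraries were below all fed ones for Uros and Ppox and above them for Fech, Alas1 and Cpox. Uros, for example, stood at 22.1, 21.4 and 20.5 CPM in the 3 fed libraries and at 15.5, 14.6 and 15.8 CPM in the 3 fasted ones.

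**Figure D5:**
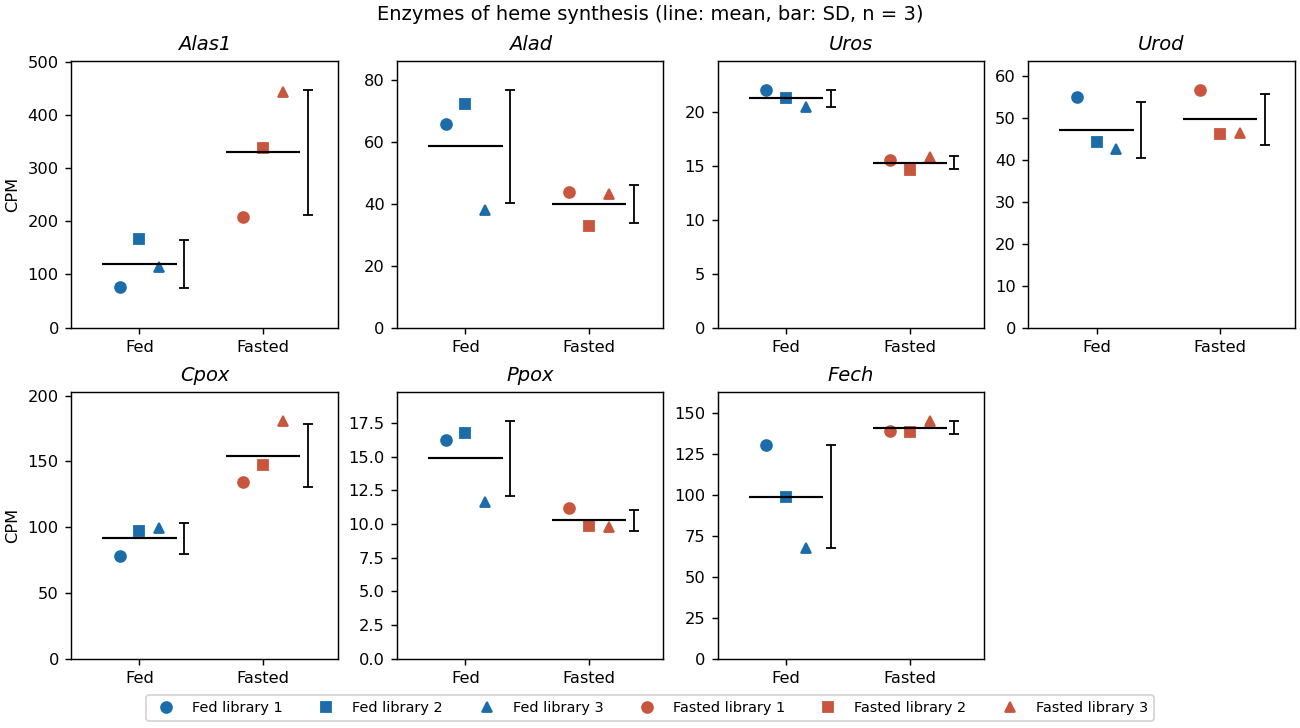
CPM of 7 enzymes of heme synthesis, with 1 panel per gene, a vertical axis from 0, points for libraries, a line for the group mean and a bar for the SD (n = 3). Fasted points lie above all fed points for Alas1, Cpox and Fech and below them for Uros and Ppox, and none of those shown passes the test.

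In the list of 10 genes for heme and haemoglobin clearance and heme export, 1 rose (Slc48a1) and the median log2 fold change was 0.16. The following genes of the lists were named after their values were seen. Hmox1, the inducible heme oxygenase, stood at 19.7, 27.2 and 25.2 CPM in the 3 fed libraries and at 28.6, 31.8 and 20.3 CPM in the 3 fasted ones, which overlapped (log2 fold change 0.16, edgeR adjusted p 0.685). Its constitutive relative Hmox2 stood at 45.0, 49.7 and 57.6 CPM in the 3 fed libraries and at 70.4, 74.9 and 70.6 CPM in the 3 fasted ones, without overlap (log2 fold change 0.50, edgeR adjusted p 0.106). Of the genes of biliverdin reductases A and B, Blvrb had a log2 fold change of 0.69 (edgeR adjusted p 0.0579). Blvra had one of −0.20 (edgeR adjusted p 0.539), and its groups overlapped.

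Of 16 tested genes in BMP and SMAD control of hepcidin, 0 passed with edgeR and 4 had an unadjusted p under 0.05, 2 in each direction, where 21.8% of all genes did. The most abundant were Tmprss6, the protease that restrains hepcidin, and Hjv (Hfe2 in the table), the BMP coreceptor hemojuvelin. Tmprss6 stood at 349, 274 and 142 CPM in the 3 fed libraries and at 268, 272 and 289 CPM in the 3 fasted ones (log2 fold change 0.12, edgeR adjusted p 0.861). Hjv stood at 70.8, 96.5 and 61.6 CPM in the 3 fed libraries and at 77.9, 86.6 and 59.6 CPM in the 3 fasted ones (log2 fold change −0.03, edgeR adjusted p 0.95). For both the groups overlapped. Bmp2, a ligand made by the liver endothelium, stood at 13.1, 15.0 and 16.6 CPM in the 3 fed libraries and at 19.4, 24.0 and 23.8 CPM in the 3 fasted ones, without overlap (log2 fold change 0.59, edgeR adjusted p 0.0959). In this list 3 genes were higher and 3 lower without overlap, against 15.3% and 13.7% of all genes. The lower ones were Smad1, Smad6 and Bmpr2, with log2 fold changes of −0.50, −0.77 and −0.28 (edgeR adjusted p 0.207, 0.189 and 0.386). Endothelial markers summed to 201, 239 and 280 CPM in the 3 fed libraries and 188, 241 and 229 CPM in the 3 fasted ones. In such bulk samples, fewer cells of a type and less RNA per cell cannot be told apart.

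Of the 6 genes of IL-6 and STAT3 control, 0 passed with edgeR and 1 had an unadjusted p under 0.05, where 21.8% of all genes did. That gene was Il6ra, the receptor of interleukin 6, at 24.1, 35.6 and 43.3 CPM in the 3 fed libraries and 66.0, 74.6 and 74.2 CPM in the 3 fasted ones (log2 fold change 1.06, SE 0.22, edgeR adjusted p 0.0549). The groups did not overlap, and 4 of 17 alternatives called it. The coreceptor gene Il6st and Stat3, the most abundant of the list, had log2 fold changes of −0.45 and 0.15 (edgeR adjusted p 0.293 and 0.75). Socs3, a feedback inhibitor of this route, ranged from 16.2 to 188 CPM in fed and from 16.2 to 70.3 CPM in fasted libraries, and its highest value was in fed library 3.

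In the list of other iron transport and storage genes, 12 of 14 were tested and 1 rose (Pcbp2). Ncoa4, the receptor that delivers ferritin to lysosomes for iron release, stood at 163, 162 and 198 CPM in the 3 fed libraries and at 277, 322 and 334 CPM in the 3 fasted ones. The groups were separate (log2 fold change 0.84, SE 0.17, edgeR adjusted p 0.0554), and 2 of 17 alternatives called it. Slc11a2, which encodes the iron transporter DMT1, stood at 41.3, 59.4 and 94.4 CPM in the 3 fed libraries and at 35.4, 29.8 and 27.8 CPM in the 3 fasted ones. Its fasted libraries were all lower (log2 fold change −1.07, SE 0.29, edgeR adjusted p 0.0993), and 2 of 17 alternatives called it. Without fed library 1 its log2 fold change was −1.34 (edgeR adjusted p 0.0301), and without fed library 3 it was −0.70 (edgeR adjusted p 0.0765). Steap4, a metalloreductase, stood at 250, 904 and 2835 CPM in the 3 fed libraries and at 362, 268 and 179 CPM in the 3 fasted ones (log2 fold change −2.30, SE 0.79, edgeR adjusted p 0.156). The Steap4 estimate was −1.09 without fed library 3 (edgeR adjusted p 0.241) and −2.82 without fed library 1, where it passed (edgeR adjusted p 0.0325). Lcn2, a siderophore carrier of the acute phase, stood at 81.3, 2521 and 7201 CPM and at 1353, 1237 and 434 CPM. Steap4 and Lcn2 had their highest value in fed library 3, as Hpx did.

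Iron sensing (3 genes) and mitochondrial iron and iron-sulfur clusters (13 genes) held no gene that passed with edgeR, and 0 and 4 genes at an unadjusted p under 0.05, where 21.8% of all genes had one. Their median log2 fold changes were −0.12 and 0.16. Aco1 and Ireb2, which encode the iron regulatory proteins that bind the elements printed above, had log2 fold changes of −0.28 and 0.28 (edgeR adjusted p 0.548 and 0.364), and their groups overlapped. Slc25a28, the mitochondrial iron importer mitoferrin 2, stood at 11.5, 9.82 and 8.23 CPM in the 3 fed libraries and at 16.2, 16.9 and 18.3 CPM in the 3 fasted ones, without overlap (log2 fold change 0.80, SE 0.17, edgeR adjusted p 0.0579). Isca1 and Iscu, of cluster assembly and the most abundant of that list, had log2 fold changes of 0.32 and 0.10 (edgeR adjusted p 0.205 and 0.79).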

How the data were processed

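RNA was measured in 6 mouse liver libraries, 3 fed and 3 fasted. The authors deposited an estimated count and an FPKM for each gene and library, per the file headers. In the copy used here 1 line was empty. The submitters' processing notes list the tools CASAVA 1.8 and TopHat2 and the human build hg19, although the gene identifiers are those of mouse in Ensembl. Not given in the sources used here are the read counter, its annotation and whether it used strand. The library kit marks the strand, per the labels' protocols.

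The deposited estimated counts are scaled: between 90.6% and 91.1% of nonzero values in a library are multiples (tolerance 0.02) of one step, which ranges from 0.840 to 1.18. Counts were divided by the step and rounded, and 162 lines that share a symbol were summed. Differences of fasted from fed were tested by quasi-likelihood in edgeR 4.0.16 (R 4.3.3) with TMM factors, filterByExpr at a minimum count of 10, two-sided p-values and Benjamini-Hochberg adjustment over all tested genes, at a threshold of 0.05. CPM use the TMM-scaled library totals. The SE of a log2 fold change was computed as |log2 fold change|/√F. Alternatives used DESeq2 1.42.0, limma 3.58.1 on log2(FPKM + 1) and log2(FPKM + 0.1), other filters and scalings, and each library left out. Gene coordinates were taken from GENCODE M21 (GRCm38) through the identifiers, and promoters are from RefSeq on GRCm38.p6.

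The members and lists were chosen with earlier results of these data known. Named genes are the members, the genes of each list that passed or, with none, the 2 most abundant, Hamp2, Saa1 and the 3 genes most like each member in log2 CPM (prior count 2). Others were named after their values were seen. The floor of 3 counts covers counting error only. A gene of the lists is not reported here.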

Additional observations from a re-analysis of the deposited data

How the results depend on the processing

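Of 170 member values under 17 alternatives, 168 kept their direction and their side of the threshold. Tfr2 passed with DESeq2, the 1 member called there, and Hpx had a log2 fold change of 0.28 without fed library 3 and of −0.90 without fed library 1, the ends of its range. The 293 genes called became 1054 with DESeq2, 173 with limma on log2(FPKM + 0.1), 40 with limma on log2(FPKM + 1) without filter and 29 with the replicate number as a block. Leaving out 1 library gave between 3 genes (without fasted library 2) and 754 genes (without fed library 3). Without fed library 1 the number was 498. Each of these fits has fewer residual degrees of freedom, and the cause of the changes in number, up or down, was not tested. No member was called in any of these fits other than DESeq2.

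Deviations of same-numbered libraries from their group means correlated at −0.07, 0.18 and −0.13. Fed library 2 correlated best with its own number, and fed libraries 1 and 3 did not. These values cannot decide whether the replicate numbers pair the samples, because deviations from a mean of 3 libraries constrain each other. Under the block no member and none of the 68 list genes passed. Higher calls were 56% of the total and 43.1% with limma on log2(FPKM + 1), where 197 genes passed. 2 alternatives were chosen after seeing the data: leaving out Alb gave 324 genes, and limma on FPKM with median-of-ratios scaling gave 243, of which 60.5% were higher. The other settings gave between 294 and 312 genes, and no scaling moved the median of all genes by 0.1 on the log2 scale. Each member had at least 517 counts per library, and whether depth or the number of libraries limits these calls was not tested.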
